A study of Mus musculus with 10 samples.

Results

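Gap junction and intercalated disc genes were followed in the ventricles of mice given aldosterone and of mice given no treatment. The genes were 9 in number, chosen by symbol: the connexin genes Gja1, Gja5 and Gjc1, the scaffold gene Tjp1, the adherens junction gene Cdh2, and the desmosome genes Dsg2, Pkp2, Jup and Dsp. They were represented by 13 of the 39429 probes of the array, of which 12 were bright enough to be kept, and all 9 genes were among the 21983 genes tested. Aldosterone hearts came from 5 male mice and no-treatment hearts from 5 male mice, each mouse a separate sample, and the labels give a duration of 7 days for both groups. The name of each sample in both groups carries the abbreviation Ctrl. Strain, age, any genetic alteration, and the dose and route of aldosterone are not given in the sources used here. Total RNA of each heart was labelled with Cy5 and hybridised with a common Cy3 sample, RNA pooled from liver, brain, heart, kidney and spleen, so every value is a log2 ratio of a heart over that mixture of tissues. Scanner files of 9 arrays were used, 4 aldosterone and 5 no-treatment arrays, and the authors' value table gave all 10 hearts, being the only source of aldosterone heart 4.

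The intercalated disc joins heart muscle cells end to end. Gap junctions, built of connexins, pass current between the cells, adherens junctions anchor the contractile filaments, and desmosomes anchor the intermediate filaments. In the ventricle, the Gja1 connexin is the main connexin of working muscle, the Gja5 connexin is known from atrium, fast conduction tissue and arterial endothelium, and the Gjc1 connexin from the early heart and the conduction system. Aldosterone, made in the adrenal gland, is the ligand of the mineralocorticoid receptor, which heart muscle cells also carry.

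The promoters of Gja1 and Dsp are shown because these genes were spotted 10 times on each array and are among those with the differences between hearts described further on. They are the 250 bases before the annotated start in RefSeq, build GRCm38.p6, plus strand, at chr10:56377050-56377299 for Gja1 and chr13:38151044-38151293 for Dsp, written 5′ to 3′ with motif matches in capitals.
Gja1: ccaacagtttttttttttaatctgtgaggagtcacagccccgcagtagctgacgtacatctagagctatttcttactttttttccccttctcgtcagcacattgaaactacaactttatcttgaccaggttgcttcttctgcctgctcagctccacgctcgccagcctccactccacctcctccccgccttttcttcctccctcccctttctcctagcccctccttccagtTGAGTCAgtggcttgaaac
Dsp: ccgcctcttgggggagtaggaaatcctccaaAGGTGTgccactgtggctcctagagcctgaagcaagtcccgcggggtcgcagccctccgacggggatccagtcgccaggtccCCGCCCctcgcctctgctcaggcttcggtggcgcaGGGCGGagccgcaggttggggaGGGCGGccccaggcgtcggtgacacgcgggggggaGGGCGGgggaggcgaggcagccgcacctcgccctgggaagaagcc
The capitals in Gja1 mark 1 match to the AP-1 motif TGANTCA, 19 bases before the start, a motif found in 6.75% of 32851 promoters of the same length. Those in Dsp mark 4 matches to the Sp1 motif GGGCGG, which 32.7% of promoters hold, and 1 match to the T-box motif AGGTGT, which 11.8% hold. Both strands were searched. The steroid receptor motif AGAACA, held by 16.1% of promoters, had no match in either window, nor had CACTTNA or TATAAA. GC content was 50% for Gja1 and 72.4% for Dsp. Promoter entries were matched for 5 of the 9 genes, and Pkp2, with clearer differences between hearts than Dsp, had none.

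The hearts did not vary along the lines of treatment alone. No-treatment hearts 1, 3 and 4 with aldosterone hearts 3 and 5, called set A here, stood apart from no-treatment hearts 2 and 5 with aldosterone hearts 1, 2 and 4, called set B. These sets were defined from measured values and are not groups of the study, so differences between them are described without a test. Over 21974 genes, the 9 junction genes left out, the first principal component of the value table held 23.9% of the variance and placed set A hearts from -37.5 to -13.7 and set B hearts from 16.7 to 25.9. Of 21983 genes, 2591 (11.8%) did not overlap between the sets in the value table, in one direction or the other. The sets come from measured values of these same arrays, so neither figure is a separate check of them. From 64.3% to 70.9% of probes per array were well above background in Cy5, and the number of arrays limits the precision. Arrays lay on 4 slides, and aldosterone arrays were always at position 2 while no-treatment arrays were at positions 1 or 4, so slide position and treatment cannot be told apart.

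None of the 9 genes passed the test for a difference between aldosterone and no treatment. With limma on the 9 arrays, 0 of the 9 genes and 0 of all 21983 genes (0%) had an adjusted p under 0.05, the smallest adjusted p over all genes being 0.1. At an unadjusted p under 0.05, limma counted 0 of the 9 genes and 1360 of all genes (6.19%). In the value table, limma on 10 hearts called 0 of the 9 genes and 37 of all genes (0.168%). At an unadjusted p under 0.05 it counted 1 of the 9, Gjc1, and 1780 of all genes (8.1%). For each of the 9 genes the ranges of the groups overlapped in both sources, while 2.09% of all genes on the arrays and 1.91% in the value table had groups that did not overlap. On the arrays 5 of the 9 genes had a higher mean with aldosterone and 4 a lower one.

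**Figure D1:**
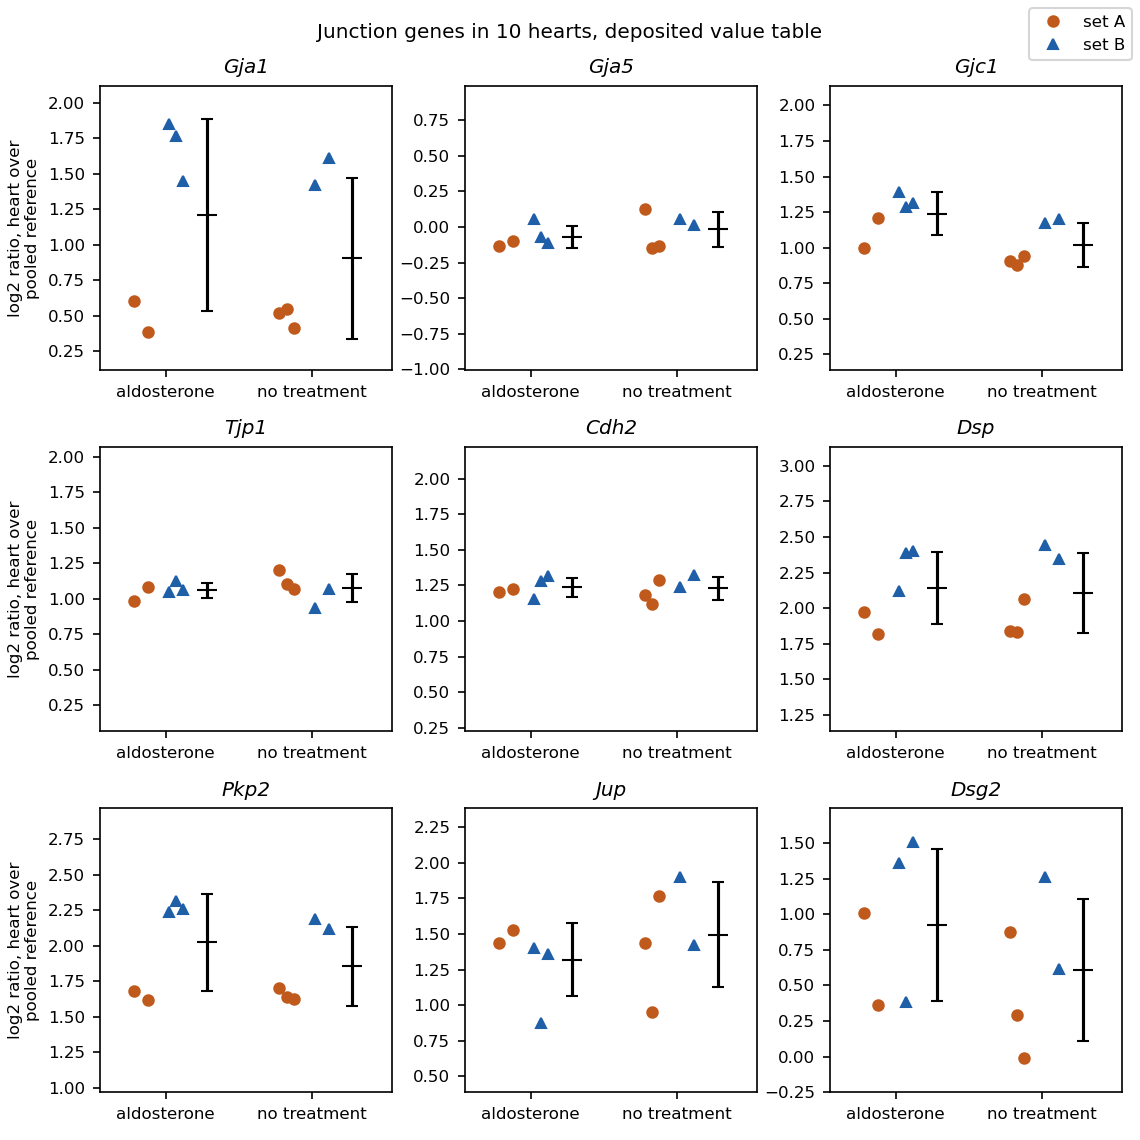
Log2 ratio of each heart over the pooled tissue sample in the value table, a panel per gene, with aldosterone hearts left and no-treatment hearts right. Every vertical axis spans the same number of log2 units, circles are set A, triangles are set B, and black bars are the group mean ± SD (n = 5 each). Gja1 and Pkp2 fall into an upper and a lower cluster inside both groups.

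**Figure D2:**
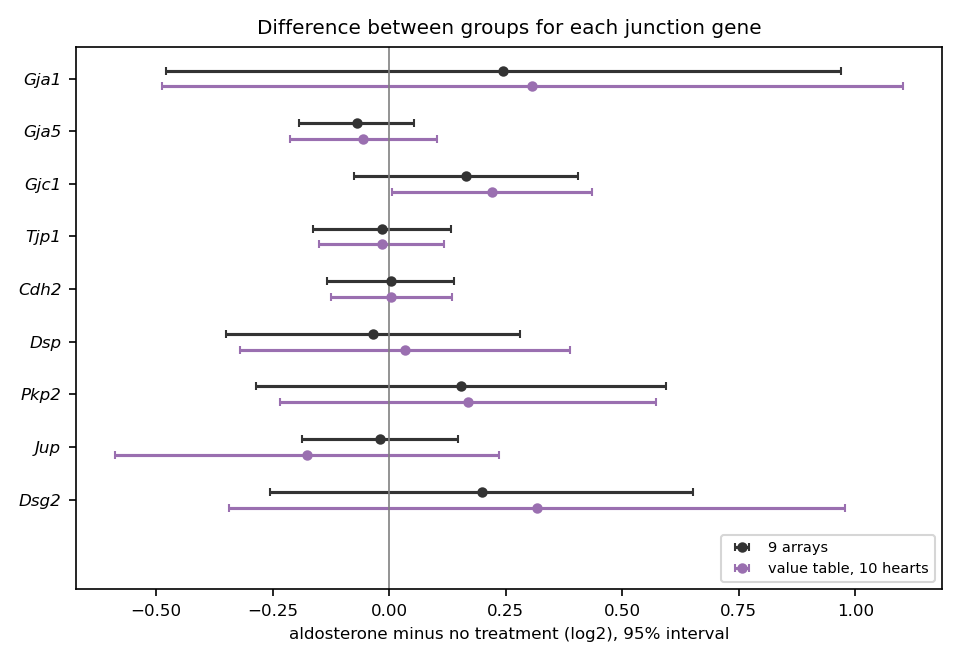
Difference, aldosterone minus no treatment, on the log2 scale for each gene, with its 95% interval from limma. Black is the 9 arrays and purple the value table of 10 hearts. All intervals from the arrays cross 0, and in the value table the interval of Gjc1 alone does not.

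Gja1, the main ventricular connexin gene, differed widely among hearts inside each group. In the value table its log2 ratios were 1.85, 1.77, 0.60, 1.45 and 0.38 in aldosterone hearts 1 to 5, and 0.52, 1.42, 0.55, 0.41 and 1.61 in no-treatment hearts 1 to 5. Aldosterone hearts 3 and 5 and no-treatment hearts 1, 3 and 4 were low, the others were high, and no heart lay between 0.60 and 1.42. On the arrays Gja1 averaged 0.66 ± 0.69 in aldosterone hearts (SD, n = 4) and 0.41 ± 0.52 in no-treatment hearts (SD, n = 5), a difference of 0.24 with SE 0.33 and a 95% interval from -0.48 to 0.97 (limma adjusted p = 0.999). Leaving out 1 array at a time gave differences from 0.04, without aldosterone 1, to 0.48, without aldosterone 5. Leaving out aldosterone 2 gave 0.05, leaving out no-treatment arrays 1, 3 and 4 in turn gave 0.16, 0.16 and 0.13, and leaving out no-treatment arrays 2 and 5 and aldosterone 3 in turn gave 0.36, 0.41 and 0.41.

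Within slides the Gja1 difference, aldosterone minus no treatment, was 0.81, 1.15, 0.20 and -1.12 on slides 1 to 4. Slides 2 and 4 each paired hearts of different sets, in opposite directions, and slide 3 paired hearts of set A only. Slide 1 held aldosterone heart 1 and no-treatment heart 2 of set B with no-treatment heart 1 of set A, and its difference was taken against the mean of the 2 no-treatment hearts.

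Gjc1, the connexin gene of the early heart, had value-table log2 ratios of 1.39, 1.28, 1.00, 1.32 and 1.21 in aldosterone hearts 1 to 5, and 0.91, 1.17, 0.88, 0.94 and 1.20 in no-treatment hearts 1 to 5. The groups overlapped through aldosterone heart 3, which lay below no-treatment hearts 2 and 5. In the value table the difference was 0.22 with SE 0.10 and a 95% interval from 0.01 to 0.43, and its p by limma was 0.0447 before and 0.6 after adjustment over all genes. On the arrays Gjc1 averaged 0.55 ± 0.15 with aldosterone (SD, n = 4) and 0.38 ± 0.20 with no treatment (SD, n = 5), a difference of 0.16 with SE 0.11 (limma adjusted p = 0.951). Its difference within slides was 0.24, 0.30, 0.14 and -0.04.

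Gja5, the connexin gene of atrium and conduction tissue, was nearly level in all hearts. Its value-table log2 ratios were 0.06, -0.07, -0.13, -0.11 and -0.10 in aldosterone hearts 1 to 5, and 0.13, 0.05, -0.15, -0.14 and 0.01 in no-treatment hearts 1 to 5. All hearts lay within 0.28 of each other. On the arrays the difference was -0.07 with SE 0.06 and a 95% interval from -0.19 to 0.05 (limma adjusted p = 0.981). A second Gja5 probe was well above background on 1 of 9 arrays and was not kept.

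Tjp1, which encodes the scaffold protein ZO-1 that binds the Gja1 connexin, had value-table log2 ratios of 1.05, 1.12, 0.98, 1.06 and 1.09 with aldosterone, and 1.20, 0.93, 1.10, 1.07 and 1.07 with no treatment. The aldosterone hearts lay inside the wider range of the no-treatment hearts. The array difference was -0.02 with SE 0.07 and a 95% interval from -0.16 to 0.13 (limma adjusted p = 1).

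Cdh2, which encodes N-cadherin, the adhesion molecule of the cardiac adherens junction, was also steady. Its value-table log2 ratios were 1.16, 1.28, 1.20, 1.32 and 1.22 with aldosterone, and 1.18, 1.24, 1.12, 1.29 and 1.32 with no treatment. The highest and the lowest heart differed by 0.20, the narrowest range of the 9 genes in that table. The array difference was 0.00 with SE 0.06 and a 95% interval from -0.13 to 0.14 (limma adjusted p = 1), and a second Cdh2 probe gave 0.08 with SE 0.08.

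Among desmosome genes, Pkp2, which encodes plakophilin 2, a plaque protein, had value-table log2 ratios of 2.24, 2.32, 1.68, 2.26 and 1.62 in aldosterone hearts 1 to 5, and 1.70, 2.19, 1.64, 1.62 and 2.12 in no-treatment hearts 1 to 5. The same 5 hearts were low as for Gja1, in either group. On the arrays Pkp2 averaged 1.75 ± 0.37 with aldosterone (SD, n = 4) and 1.60 ± 0.35 with no treatment (SD, n = 5), a difference of 0.15 with SE 0.20 and a 95% interval from -0.29 to 0.59 (limma adjusted p = 0.999). The difference within slides was 0.30, 0.74, 0.15 and -0.49, and with 1 array left out it ran from 0.02, without aldosterone 2, to 0.27, without aldosterone 3.

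Dsp encodes desmoplakin, which ties the desmosome to intermediate filaments. Its value-table log2 ratios were 2.12, 2.38, 1.97, 2.40 and 1.82 in aldosterone hearts 1 to 5, and 1.84, 2.45, 1.83, 2.06 and 2.34 in no-treatment hearts 1 to 5. Aldosterone heart 1 and no-treatment heart 4 lay close to each other between the low and the high hearts. The array means were 1.94 ± 0.23 with aldosterone (SD, n = 4) and 1.97 ± 0.26 with no treatment (SD, n = 5), a difference of -0.03 with SE 0.14 (limma adjusted p = 1). The sign was not settled, since the value table gave 0.03 with SE 0.16. Within slides the difference was -0.02, 0.54, -0.11 and -0.50.

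Dsg2 encodes desmoglein 2, a desmosomal cadherin. It had the widest range of the 9 genes in the value table, with log2 ratios of 1.36, 0.39, 1.01, 1.51 and 0.36 in aldosterone hearts 1 to 5, and 0.88, 1.27, 0.29, -0.01 and 0.62 in no-treatment hearts 1 to 5. High and low hearts occurred in both groups and in both sets. The array difference was 0.20 with SE 0.21 and a 95% interval from -0.25 to 0.65 (limma adjusted p = 0.999), and a second, dimmer Dsg2 probe gave -0.06 with SE 0.12, of opposite sign. With 1 array left out the difference of the first probe ran from 0.03, without aldosterone 1, to 0.33, without aldosterone 2. Median Cy5 signals were from 235 to 509.5 for the first probe and from 153 to 253.5 for the second.

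Jup encodes plakoglobin, a plaque protein shared by desmosomes and adherens junctions. Its log2 ratios in the value table were 1.40, 0.87, 1.44, 1.36 and 1.53 with aldosterone, and 1.44, 1.90, 0.95, 1.77 and 1.42 with no treatment. On the arrays, where an offset of 50 units draws dim ratios toward 0, Jup averaged 0.34 ± 0.09 with aldosterone (SD, n = 4) and 0.36 ± 0.12 with no treatment (SD, n = 5). The difference was -0.02 with SE 0.08 (limma adjusted p = 1). Its probe was the dimmest of those that stand for the 9 genes, with median Cy5 signals from 111 to 143 where the median local background was from 57 to 59, so the depth of signal for Jup was the least.

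When the hearts were read by set, 3 of the 9 genes (33.3%), Gja1, Pkp2 and Dsp, were lower in every heart of set A than in every heart of set B, and 0 were higher. The genes and the sets were chosen with these values known, so the count is a description, and of all 21983 genes in that source 4.79% were lower in every set A heart and 6.99% higher. The other 6 genes overlapped between the sets. For Gjc1 the overlap came from aldosterone heart 5 alone, whose value of 1.21 was above the set B hearts at 1.17 and 1.20.

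Gja1 ranged from 0.38 to 0.60 in set A and from 1.42 to 1.85 in set B in the value table. The gap between the nearest hearts of the sets was 0.82 on the log2 scale, a ratio of 1.76 for set B over set A, and 13 of 21983 genes had a wider gap in that direction. On the arrays Gja1 ranged from -0.04 to 0.16 in set A and from 0.88 to 1.28 in set B.

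Pkp2 ranged from 1.62 to 1.70 in set A and from 2.12 to 2.32 in set B, with a gap of 0.41, and 58 genes had a wider one. On the arrays it ranged from 1.25 to 1.47 in set A and from 1.96 to 2.15 in set B. Dsp ranged from 1.82 to 2.06 in set A and from 2.12 to 2.45 in set B, with a gap of 0.06, and 593 genes had a wider one. The Dsp sets thus lay almost against each other, while those of Gja1 and Pkp2 stood clear.

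**Figure D3:**
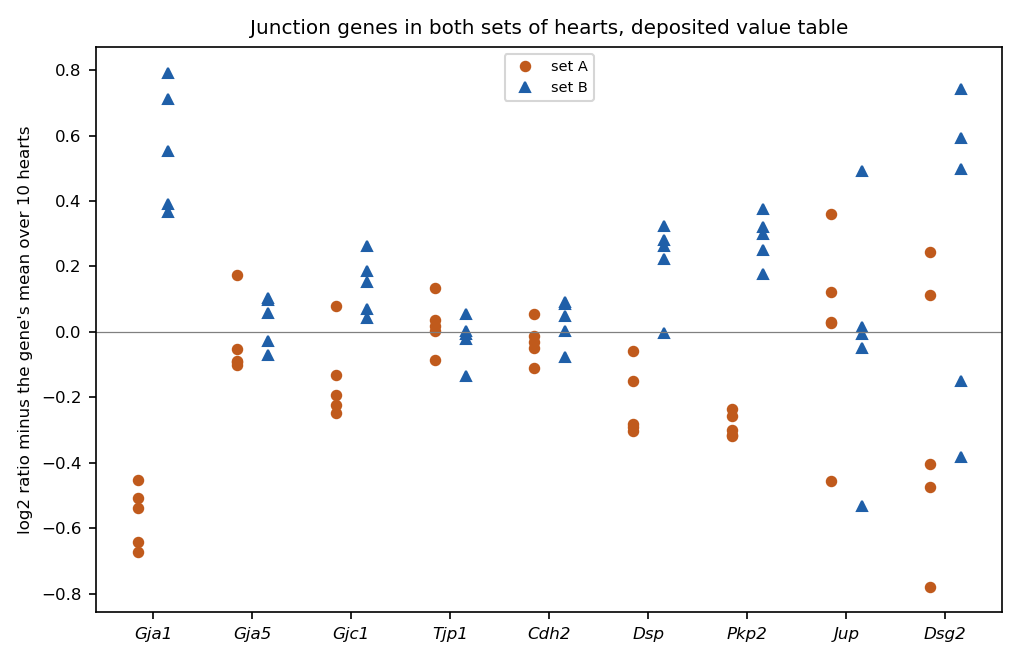
Log2 ratio of each heart in the value table minus the mean of that gene over 10 hearts, with set A as circles left and set B as triangles right for each gene. Gja1 and Pkp2 leave a gap between the sets, Dsp a gap of 0.06, and the other 6 genes overlap.

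On the arrays the same 3 genes, by the probe that stands for each gene, did not overlap between the sets. There 6.24% of all genes were lower in every set A array and 5.38% higher. The Gja1 and Dsp probes were each spotted 10 times per array, with 9 Dsp spots used on aldosterone 3. The SD between spots of an array was from 0.03 to 0.12 for Gja1 and from 0.02 to 0.10 for Dsp, which is the spread of the measurement within an array and not between hearts.

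**Figure D4:**
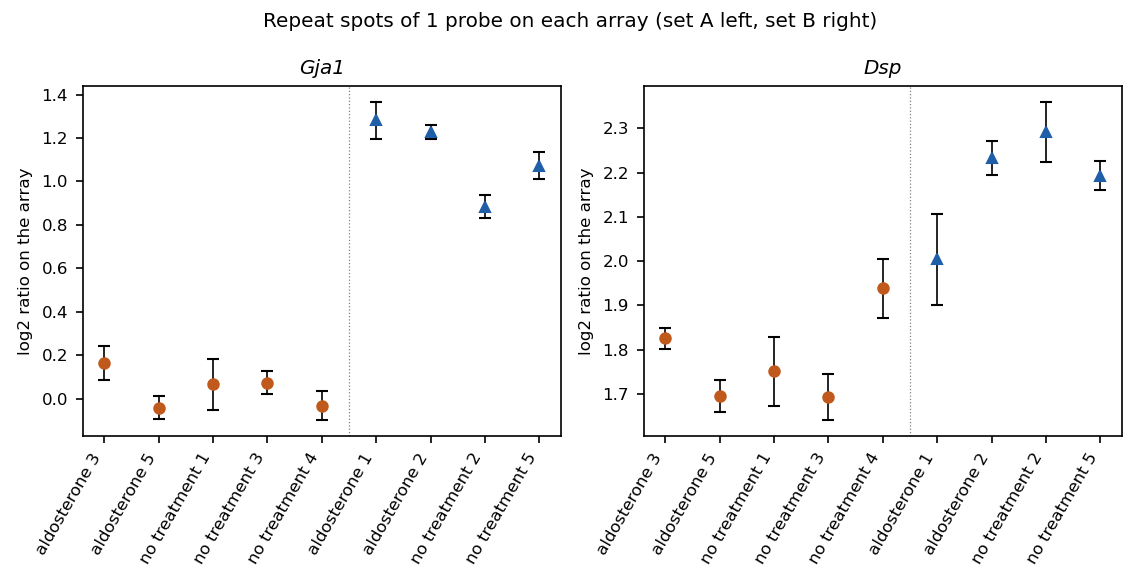
Log2 ratio of the Gja1 probe and of the Dsp probe on each of the 9 arrays, as the mean over the repeat spots with bars of ± SD between spots. Set A arrays are circles left of the dotted line and set B arrays triangles right of it. Bars of Gja1 stay far from the other set, and for Dsp the arrays no treatment 4 and aldosterone 1 lie near each other.

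Only 1 probe measured Gja1 and 1 measured Pkp2, so no second probe checks them. A second Dsp probe ranged from 1.41 to 1.56 in set A and from 1.64 to 2.08 in set B on the arrays, without overlap, but overlapped in the value table, at 2.82 to 3.25 in set A and 3.00 to 3.48 in set B. The second Dsg2 probe ranged from -0.04 to 0.25 in set A and from 0.27 to 0.58 in set B on the arrays, also without overlap. It overlapped in the value table, at 0.54 to 1.12 in set A and 0.99 to 1.50 in set B. The first Dsg2 probe overlapped in both sources.

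The genes nearest to Gja1 in their heart-by-heart course in the value table, each centred on its own mean over 10 hearts, were Epdr1, Raver2 and Pygb, with root mean square differences of 0.161, 0.172 and 0.189 on the log2 scale. Epdr1 ranged from 0.03 to 0.19 in set A and from 0.93 to 1.17 in set B. Pygb, the brain form of glycogen phosphorylase, ranged from 0.93 to 1.17 in set A and from 1.91 to 2.05 in set B. The genes nearest to Gja5 were Pa2g4, Mep1a and Spcs2, at 0.0391, 0.0415 and 0.0429, all with little change between hearts. All of these share the arrays and the pooled sample with the junction genes. They were picked for likeness to Gja1 or Gja5 over these same hearts, so their course by set follows from that choice.

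Other genes of the junction were taken from 6 lists: other connexins and pannexins, adherens junction genes, desmosome genes, junction scaffolds, disc-linked actin and channel genes, and regulators of cardiac junctions. Of 102 listed genes 81 were tested, and 0 passed at an adjusted p under 0.05 by limma on the arrays or in the value table. Of the 81, 38 had a higher and 43 a lower mean with aldosterone, with a median difference of 0.00 in size, against 0.00 over all genes. At an unadjusted p under 0.05 the arrays counted 2 higher and 2 lower, where 4.15% of all genes were higher and 2.03% lower at that level.

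Ctnna3, the alpha-T-catenin of the disc, differed by -0.21 with SE 0.08 (limma adjusted p = 0.735), where the value table gave -0.33 with SE 0.16. Ctnnd1, the p120 catenin that binds cadherins, differed by 0.19 with SE 0.06 (limma adjusted p = 0.619). For Ctnnd1 the value table gave 0.12 with SE 0.06, and the groups overlapped there but not on the arrays. Bves, which encodes a Popeye membrane protein, differed by 0.24 with SE 0.10 (limma adjusted p = 0.792). Its array values were 3.18, 3.19, 2.69 and 2.78 in aldosterone hearts 1, 2, 3 and 5, against 2.75, 2.70, 2.73, 2.66 and 2.74 in no-treatment hearts 1 to 5. On the arrays aldosterone hearts 1 and 2, both of set B, lay far above the rest. In the value table aldosterone hearts 4 (set B) and 5 (set A) were at 3.38 and 3.19, above the highest no-treatment heart at 3.17. Aldosterone heart 3 was at 3.15 there, below no-treatment hearts 1 and 2 at 3.16 and 3.17, so the groups overlapped.

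None of the named partners of the 9 genes passed the test. On the arrays Ctnnb1, which encodes beta-catenin, had a difference of 0.01 with SE 0.06, and Vcl, which encodes vinculin, of 0.06 with SE 0.11. Des, the muscle intermediate filament desmin, had 0.07 with SE 0.10, and Dsc2, desmocollin 2, had 0.04 with SE 0.12. The endothelial connexin gene Gja4 had a difference of -0.13 with SE 0.09. The cardiac transcription factor genes Tbx5 and Nkx2-5 had -0.11 with SE 0.10 and 0.00 in size with SE 0.09.

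With aldosterone on the arrays, 3 of 10 connexins and pannexins, 7 of 15 adherens junction genes, 4 of 7 desmosome genes, 7 of 15 scaffold genes, 13 of 20 actin and channel genes and 4 of 14 regulators had the higher mean. Panx1, which encodes a pannexin channel, had a difference of 0.23 with SE 0.13. The connexin gene Gja10 had -0.11 with SE 0.06, where the value table gave -0.26 with SE 0.27. Its log2 ratios ran from 0.21 to 0.45 on the arrays and from 1.55 to 3.05 in the value table. Of the desmosome list, Ppl, periplakin, had -0.13 with SE 0.09. Tmem43, a nuclear envelope gene tied to arrhythmogenic cardiomyopathy in humans, had 0.09 with SE 0.06. Among scaffolds, Cxadr, the coxsackievirus and adenovirus receptor, had 0.13 with SE 0.14, Pdzd2 -0.19 with SE 0.12 and Ank3, ankyrin G, 0.05 with SE 0.07. Xirp1, an actin-binding disc protein gene, had a difference of -0.02 with SE 0.10. The T-box factor genes Tbx3 and Tbx18 had -0.20 with SE 0.11 and -0.15 with SE 0.12. None of these passed at an adjusted p under 0.05 by limma.

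By set, 9 of the 81 list genes (11.1%) were lower in every set A heart in the value table, where 4.79% of all genes were, and 4 (4.94%) were higher, where 6.99% of all genes were. Among those lower were Ctnna1, Nectin3, Pkp3, Perp, Magi3, Cask and Myzap. Those higher were Arvcf, Ank3, Tln1 and Mapre1. Of the genes named, Ctnna1, Pkp3, Arvcf, Ank3 and Mapre1 overlapped between the sets on the arrays. All genes named here were named after their values were seen. On the arrays the 6 lists, in the order given above, held 1, 1, 1, 2, 2 and 0 genes lower in every set A heart. They held 0, 1, 0, 0, 1 and 0 genes higher there, where 6.24% of all genes were lower and 5.38% higher. List genes lower in every set A heart were thus fewer in all than the 9 of the value table, against a larger share of all genes. Ctnna1 encodes alpha-E-catenin. In the value table it ranged from 1.31 to 1.68 in set A and from 1.68 to 1.88 in set B. Hearts of the sets nearly touched there.

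The tissue label was checked with marker lists. All 12 cardiomyocyte markers were measured, and their mean log2 ratio in the value table ranged from 1.59 to 1.89 in aldosterone hearts and from 1.54 to 1.84 in no-treatment hearts. The mean of 8 atrial markers was from -2.62 to -2.34 in aldosterone hearts and from -2.58 to -2.37 in no-treatment hearts. In bulk tissue, fewer cells of a type and less RNA per cell cannot be told apart. By set, the cardiomyocyte mean ranged from 1.54 to 1.84 in set A and from 1.74 to 1.89 in set B, with overlap. Of its 12 genes 2 were lower and 1 higher in every set A heart. These were Ryr2, Pln and Mybpc3, named in list order and not by direction. Of the other lists, 2 smooth muscle and pericyte genes (Rgs5 and Abcc9) and 1 macrophage gene (Mrc1) were lower in every set A heart, and 2 atrial genes (Myl4 and Stard10) were higher, where 11.8% of all genes did not overlap in either direction. The means of all 11 lists overlapped between the sets. Between the treatment groups, 10 of the 11 lists overlapped. The exception was the red blood cell list, with 5 of 8 markers measured, at -2.15 to -1.68 in aldosterone hearts and -3.09 to -2.20 in no-treatment hearts. The part of these cell types in the values of the junction genes was not tested.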

How the data were processed

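Ventricle RNA of 10 mice was compared on 2-colour Agilent arrays. The scanner files deposited for 9 arrays hold, per the file headers, spot intensity in both channels and log10 ratios with Cy5 on top. The submitters' processing notes name Agilent Feature Extraction 10.7.3.1. For all 10 hearts the authors deposited log2 ratios by probe, equal in scale and direction to the scanner ratio on the 9 arrays where both could be set side by side. Column medians ran from -0.01 to 0.12, and no centring was seen.

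Median signals were corrected with normexp (offset 50) after any local background differing by over 20 units from its array's median was set to that median. Ratios were loess-normalized within arrays, with control spots at weight 0 and 1667 outlier spots left out (R 4.3.3, limma 3.58.1). Of 39429 probes 26832 were kept, with Cy5 well above background on at least 4 arrays. The probe of highest mean Cy5 signal stood for each gene. Accessions were matched to RefSeq records of GRCm38.p6 for names, which named 26581 probes. A limma model compared 4 aldosterone with 5 no-treatment arrays, and two-sided p-values were adjusted by Benjamini-Hochberg over 21983 genes, with a threshold of 0.05. Every sample carries its own mouse number. The fit was tested on simulated data. The genes, the lists, the sets of hearts and the probe choice were made with earlier results of these data known. Named genes were the 9 members, the 2 list genes of smallest p per list, a fixed set of disc partners, and the 3 genes nearest to Gja1 and to Gja5, and the values of some list genes are not reported here. Alternatives covered background, normalization, source of values, probe filter, slide or replicate number as a block, and each array left out. Samples of the same number did not deviate together throughout, so the numbers were not used as pairs.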

Additional observations from a re-analysis of the deposited data

Results flagged for a closer look

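Of 36 groups of values checked for a heart far from the rest of its group, 1 stood out, where chance gives about 1 in 20. In the value table the Jup log2 ratio of aldosterone heart 2 was 0.87, with the other aldosterone hearts between 1.36 and 1.53. On the arrays the same heart, at 0.27, did not stand apart from the other aldosterone hearts, which were at 0.26, 0.39 and 0.45. The Jup probe was dim on all arrays, and the part of this in the value was not tested.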

How the results depend on the processing

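None of the 9 genes passed an adjusted p of 0.05 in any of 20 alternative settings run, 11 of processing or model and 9 that each left out 1 array, and the smallest adjusted p of a junction gene was 0.6, for Gjc1 in the value table. The count over all genes, 0 with the chosen settings, was 11 with Agilent's processed log ratio, 37 with the value table of 10 hearts and 2 with the replicate number as a block, and from 0 to 11 with 1 array left out (7 without no treatment 3, 2 without no treatment 4, 11 without no treatment 5 and 1 without aldosterone 1). Of 180 differences recomputed, 158 kept their sign. Near 0, Cdh2 turned to -0.012 with stray local backgrounds kept, -0.015 with Agilent's log ratio and -0.0086 with slide as a block. Jup turned to 0.023 with stray backgrounds kept and 0.0054 with the replicate number as a block, and Dsp to 0.034 in the value table. With 1 array left out, Tjp1 ran from -0.047 to 0.014, Cdh2 from -0.020 to 0.034, Dsp from -0.13 to 0.047 and Jup from -0.055 to 0.019. The cause of these changes was not tested. Samples of the same number correlated at 0.06, 0.34, 0.35 and -0.34 in their deviations for numbers 1, 2, 3 and 5, and no junction gene was called with that block.

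The alternatives for the sets were chosen after seeing the data. Gja1 and Pkp2 did not overlap between the sets in any of the settings run. Only settings that changed background, normalization or the source of values could have shown an overlap. Leaving out an array cannot make sets overlap. With a block, another probe filter or the probe mean, the array values of Gja1 and Pkp2 stayed the same. The count of genes without overlap was 2, Dsp being lost, with median centring in place of loess or with Cy5 alone, and 4, with Gjc1 added, without no treatment 2 or without aldosterone 5. Dim signal limits Jup, Gja5 and the second probe of Dsg2.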
